A study of Mus musculus with 16 samples.

Results

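Calcium that enters a cell through the NMDA receptor binds calmodulin, and calcium-loaded calmodulin switches on the kinases and the nitric oxide synthase described here. The genes were chosen by symbol from the count table as calcium effectors downstream of the NMDA receptor, and all 10 were found among its 23224 genes: Camk2a, Camk2b, Camk2d, Camk2g, Camk1, Camk1d, Camk4, Camkk1, Camkk2 and Nos1. All 10 also passed the filter on low counts that left 16084 genes for testing.

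CaMKII, encoded by Camk2a, Camk2b, Camk2d and Camk2g, assembles into large rings whose subunits phosphorylate each other, so that activity can outlast a calcium pulse. The upstream kinases Camkk1 and Camkk2 phosphorylate and activate Camk1, Camk1d and Camk4, of which Camk4 acts largely in the nucleus on transcription factors such as CREB. Neuronal nitric oxide synthase, the product of Nos1, is held near NMDA receptors in neurons by the scaffold protein PSD-95 and makes nitric oxide when calmodulin binds it. In pancreatic beta cells, CaMKII is known for its part in calcium-triggered insulin release.

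Polyadenylated RNA was sequenced from neuroendocrine tumours of the pancreas. The mice were RIP1Tag2 transgenics, which make SV40 T antigen under the rat insulin promoter and develop beta cell tumours. All mice carried RIP1Tag2 and were 14 to 16 weeks old, at end stage. The 7 B6 controls (C57Bl/6) were untreated or given saline for 3 days, and the labels do not say which mouse had which. The 4 C3H controls (C3HeB/Fe) carried the same transgene on the other strain background and fell under the same untreated-or-saline description. The 5 B6 MK801 mice received the NMDA receptor blocker MK801 by intraperitoneal injection once daily at 1 mg/kg for 3 days. The title names GKAP, which Dlgap1 encodes, as modulating signalling by the receptor, and strain and receptor blockade are the comparisons. Nothing in the labels says whether tumours were pooled or came from separate mice, so p-values measure the spread between libraries, which may be partly technical.

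Libraries held 38561334 to 57013815 estimated counts. Levels are in CPM, counts per 1000000 counts of the scaled library. For the check of the strain labels, Dlgap1 averaged 29.8 ± 5.70 CPM (SD, n = 7) in B6 controls, 0.535 ± 0.354 (n = 4) in C3H controls and 33.7 ± 6.61 (n = 5) with MK801. Beta cell markers were present in all 16 libraries, and their summed level (8 of 8 genes in the table) ran from 15437 to 83991 CPM in B6 controls, 52407 to 111772 in C3H controls and 29706 to 62354 with MK801. The lowest of these sums belonged to B6 control replicate 1, which stood apart. Its 6 neuron markers summed to 216.5 CPM against 26.5 to 74.8 CPM in the other 15 libraries. The neuronal transcription factor gene Neurod6 was at 21.8 CPM there and at 0.0454 CPM or less elsewhere, and the neurofilament gene Nefl was at 57.0 CPM there and at 4.52 CPM or less elsewhere. Nefm, of the same list, was at 132.8 CPM there. The other listed genes, Rbfox3, Slc17a7 and Prph, reached no more than 5.23, 3.45 and 2.52 CPM in any B6 control. Their highest values were 20.4, 1.80 and 1.37 CPM in C3H controls and 9.47, 1.95 and 5.30 CPM with MK801. The higher neuron marker sum thus lay in Neurod6, Nefl and Nefm. B6 control replicate 1 also held the highest macrophage and T and NK cell marker sums of the 16 libraries, at 994 and 46.2 CPM. Fold changes without B6 control replicate 1 are given beside the results it moves.

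The CaMKII genes are close relatives, which bears on how reads can be assigned among them. The segment below holds the threonine whose phosphorylation keeps the kinase active and the start of the calmodulin-binding stretch, and it is shown because the kinase's regulation turns on it. It comes from each gene's longest reading frame, from start to stop codon, among its protein-coding GENCODE M21 transcripts on GRCm38. It is given as mRNA-sense DNA, and capitals mark the 26 of 72 positions at which the 3 genes are not all the same. Camk2b lies on chromosome 11, Camk2d on chromosome 3 and Camk2g on chromosome 14.
Camk2b: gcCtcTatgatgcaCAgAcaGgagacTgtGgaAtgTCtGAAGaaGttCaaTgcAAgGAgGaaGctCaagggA
Camk2d: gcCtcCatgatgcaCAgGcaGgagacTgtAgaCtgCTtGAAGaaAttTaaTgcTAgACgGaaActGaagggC
Camk2g: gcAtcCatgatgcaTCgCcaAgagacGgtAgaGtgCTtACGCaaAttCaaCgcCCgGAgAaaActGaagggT
Camk2b and Camk2d shared 58 of the 72 bases (80.6%), Camk2d and Camk2g 53 (73.6%), and Camk2b and Camk2g 49 (68.1%). With the longest transcript of each gene, the longest run shared by any pair of these 3 genes was 29 bases, between Camk2b and Camk2g. On the same basis it was 17 bases between Camk1 and Camk1d and 14 bases between Camkk1 and Camkk2. Other transcripts were not compared, nor was Camk2a. Estimated counts of Camk2b and Camk4 were not whole in 16 of 16 libraries, and those of Camk2d, Camk2g and Camkk2 in 15 of 16. Those of Nos1 were not whole in 3 of 16. Depth differed as well, with 1 to 81 estimated counts per library for Nos1 and 5373 to 17805 for Camk2b. Its part in this contrast was not tested, and Camk4 was not compared with a relative.

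Among the CaMKII genes, Camk2b was the most abundant per length of the longest transcript in 16 of 16 libraries, and no member of the family passed the test for strain or for MK801. With the median transcript length it led in 15 of 16, and in B6 control replicate 1 Camk2g then held 45.4% and Camk2b 39.6%. Camk2b averaged 51.7 ± 15.7 CPM per kb of transcript in B6 controls (SD, n = 7), against 9.26 ± 3.32 for Camk2g, 8.14 ± 3.33 for Camk2d and 0.373 ± 0.342 for Camk2a. As a share of the summed CPM per kb of the 4 genes, Camk2b made up 73.3 ± 12.1% in B6 controls (n = 7), 81.4 ± 3.98% in C3H controls (n = 4) and 78.7 ± 5.52% with MK801 (n = 5). B6 control replicate 1 was lowest at 48.4%, where Camk2d held 24.4% and Camk2g 25.8%. The other 6 B6 controls gave Camk2b 70.1% to 83.2%. Camk2a, the form known for its abundance in forebrain neurons, held 0.0815% to 1.57% over the 16 libraries.

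**Figure D1:**
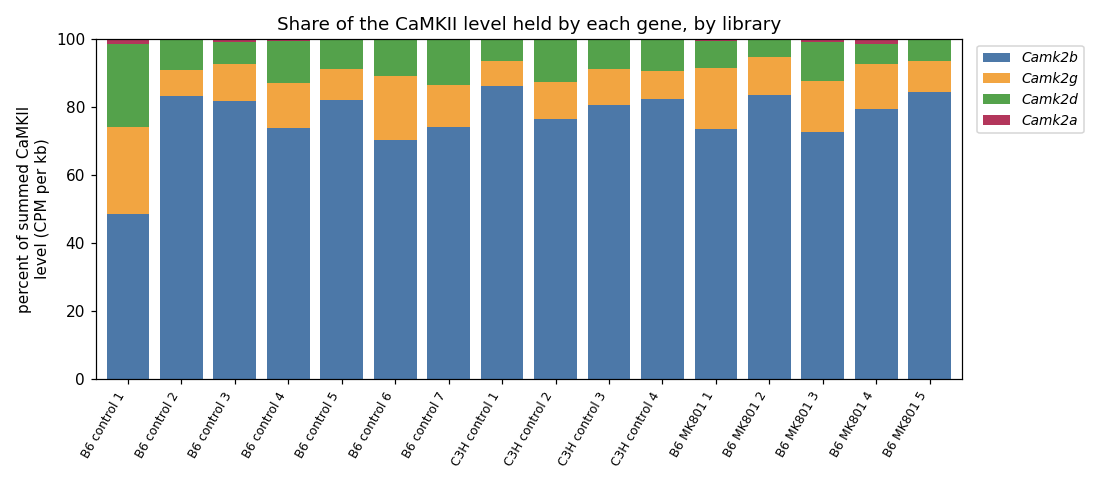
Share of the summed CaMKII level (CPM per kb of the longest protein-coding transcript) held by each of the 4 genes in each of the 16 libraries, in percent. On these lengths Camk2b takes the largest share in each library, from 48.4% in B6 control replicate 1 to 86.1% in C3H control replicate 1; with median lengths Camk2g leads in B6 control replicate 1.

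Camk2b, whose protein also binds actin, had the smallest unadjusted p of the 10 genes in the strain comparison. B6 controls ran from 121.7 CPM through a median of 196.9 to 281.0 CPM. The C3H controls stood at 386.5, 272.9, 284.6 and 338.8 CPM, so that 4 of 4 lay above the B6 control mean while the groups overlapped at 272.9 and 281.0 CPM. Camk2b was 1.54-fold higher in C3H controls (log2 fold change 0.62, SE 0.218, 95% interval 0.16 to 1.09), with an unadjusted p of 0.0113 and an adjusted p of 0.190 in edgeR's quasi-likelihood test. Leaving out B6 control replicate 1, which had the lowest value, gave a log2 fold change of 0.53 and an adjusted p of 0.247.

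With MK801 the Camk2b levels were 264.8, 327.0, 205.6, 310.0 and 321.9 CPM, of which 4 of 5 lay above the B6 control mean of 208 ± 63.2 CPM. The groups overlapped. The log2 fold change was 0.46 (SE 0.205, 95% interval 0.02 to 0.89; unadjusted p = 0.0406, adjusted p = 0.384, edgeR), and it was 0.36 without B6 control replicate 1 (adjusted p = 0.509).

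Camk2d, the form that predominates in heart, had medians of 41.5 CPM in B6 controls, 47.3 in C3H controls and 33.7 with MK801, and B6 control replicate 1 held the highest value of the 16 libraries, 84.2 CPM. Its log2 fold change was 0.12 for C3H (95% interval -0.41 to 0.65, adjusted p = 0.869) and -0.35 for MK801 (-0.85 to 0.15, adjusted p = 0.652). Without that library the values were 0.35 and -0.12.

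Camk2g, widely expressed outside the brain, varied least in C3H controls, at 32.7 ± 2.06 CPM (SD, n = 4). B6 controls averaged 34.3 ± 12.3 CPM with 59.6 CPM in replicate 1, and the MK801 group 43.3 ± 10.8 CPM with 60.2 CPM in replicate 1. The log2 fold changes were -0.07 for C3H (95% interval -0.57 to 0.43) and 0.34 for MK801 (-0.12 to 0.80), with adjusted p of 0.926 and 0.627. Without B6 control replicate 1 they were 0.12 and 0.53.

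Camk2a was low and uneven: 12 to 346 estimated counts per library, and 0.274 to 4.49 CPM in B6 controls, 0.359 to 1.65 CPM in C3H controls and 0.904 to 7.55 CPM with MK801. The highest library was MK801 replicate 4. The log2 fold changes were -1.18 for C3H (95% interval -2.86 to 0.50, adjusted p = 0.561) and 0.79 for MK801 (-0.68 to 2.26, adjusted p = 0.775), and both intervals included 0. They were -0.79 and 1.17 without B6 control replicate 1, and the MK801 value was 0.16 without MK801 replicate 4.

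Neither upstream kinase passed the test in either comparison. Camkk2, which activates AMP-activated kinase as well as the CaM kinases, ranged from 19.7 CPM through a median of 36.3 to 48.1 CPM in B6 controls. The C3H controls stood at 69.8, 38.8, 42.4 and 45.4 CPM. All 4 were above the B6 control mean of 33.3 ± 11.8 CPM, but only replicate 1 was above every B6 control. The log2 fold change was 0.56 (SE 0.248, 95% interval 0.03 to 1.09; unadjusted p = 0.0385, adjusted p = 0.323), and 0.47 without B6 control replicate 1 (adjusted p = 0.447). With MK801 the 5 libraries lay between 32.4 and 44.5 CPM, inside the range of the B6 controls, with a log2 fold change of 0.21 (95% interval -0.28 to 0.71, adjusted p = 0.845).

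Camkk1, the other upstream kinase, averaged 17.2 ± 4.35 CPM in B6 controls, 18.5 ± 2.27 in C3H controls and 16.4 ± 1.94 with MK801. B6 control replicate 1 was lowest at 9.08 CPM. The 95% intervals of its log2 fold change ran from -0.34 to 0.55 for C3H and from -0.48 to 0.34 for MK801, around 0.10 and -0.07. Without that library the log2 fold changes were -0.0036 and -0.18.

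Camk1, a cytoplasmic kinase activated by Camkk1 and Camkk2, was the only member whose groups did not overlap in a comparison, and the difference did not pass the test. B6 controls ran from 34.5 CPM through a median of 39.9 to 51.3 CPM. The MK801 libraries stood at 28.2, 23.6, 34.0, 34.2 and 31.4 CPM, so that the highest of them lay just under the lowest B6 control. The log2 fold change was -0.44 (SE 0.133, 95% interval -0.72 to -0.16), with an unadjusted p of 0.00447 and an adjusted p of 0.139 in edgeR's quasi-likelihood test. Without B6 control replicate 1, the highest library, it was -0.38 (adjusted p = 0.240). DESeq2's Wald test on the same genes gave -0.43 and an adjusted p of 0.0345, and Camk1 was the only member called by it. That test called 641 of the 16084 genes for MK801, against 100 in edgeR's test.

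Several marker lists of other cell types had lower means in the MK801 libraries, while duct cell (431 CPM in B6 controls, 470.0 CPM with MK801) and other islet cell markers (133 and 166 CPM) had higher ones. The medians of these 2 lists were lower with MK801, at 446 and 349 CPM for duct cell and 109 and 61.3 CPM for other islet cell markers. Their highest MK801 libraries were replicate 5 at 936 CPM and replicate 2 at 505 CPM. Krt7 made up most of the duct cell sum (means 370 and 446 CPM), while Krt19, Sox9, Spp1 and Cftr had lower means with MK801. Macrophage markers (8 of 8 in the table) summed to 622 to 994 CPM in B6 controls and 367 to 662 with MK801. Fibroblast and mural cell markers (9 of 9) summed to 440 to 1184 and 282 to 400 CPM, and T and NK cell markers (8 of 8) to 14.5 to 46.2 and 8.86 to 34.2 CPM. B6 control replicate 1 held the 994 and 46.2 CPM. The next highest B6 controls stood at 892 CPM for macrophage markers (replicate 5) and 32.6 CPM for T and NK cell markers (replicate 4). B cell markers (4 of 4) summed to 2.19 to 7.03 and 0.774 to 2.03 CPM. The beta cell marker sum averaged 61584 CPM in B6 controls and 47074 CPM with MK801, and Ins1, Ins2 and Iapp made up most of it. These and Mafa had lower means with MK801. Pdx1, Nkx6-1, Slc2a2 and G6pc2 had higher ones, as in G6pc2 at 1222 and 1594 CPM. With the T and NK cell list as a covariate, the Camk1 log2 fold change was -0.31 with an adjusted p of 0.9998. The list differed between the groups (means 28.3 and 15.8 CPM) and 0 of 16084 genes passed in that fit. Its adjusted p is therefore not particular to Camk1. The part of the other lists in the Camk1 result was not tested. In bulk RNA, fewer cells of a type and less RNA per cell cannot be told apart.

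In C3H controls Camk1 stood at 43.4, 37.7, 36.2 and 40.4 CPM, within the B6 range, with a log2 fold change of -0.06 (95% interval -0.36 to 0.24, adjusted p = 0.889). Camk1 also varied least of the members among libraries of a group: the within-group SD of its log2 CPM was 0.191, against a median of 0.398 over the 12918 genes whose mean log2 CPM reached 1.

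Camk1d, a close relative of Camk1, varied more. Its within-group SD was 0.880 on the log2 scale, below those of the low-count genes Camk2a (1.29) and Nos1 (1.19), and its highest and lowest libraries differed 11.6-fold. B6 controls spanned 4.25 to 49.3 CPM with a median of 14.4, and replicate 1 was highest. C3H controls stood at 13.3, 28.3, 23.9 and 26.4 CPM, and the MK801 libraries at 16.6, 9.72, 10.1, 12.7 and 37.0 CPM. The groups overlapped, and the log2 fold changes were 0.30 for C3H (95% interval -0.78 to 1.39) and -0.11 for MK801 (-1.14 to 0.91), with adjusted p of 0.831 and 0.979. Without B6 control replicate 1 they were 0.77 and 0.35, with adjusted p of 0.519 and 0.845.

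Camk4, the nuclear kinase, spread most in C3H controls, at 25.7, 49.1, 78.5 and 66.0 CPM, where 1 library lay below and 2 lay above all B6 controls (35.2 to 58.5 CPM). The MK801 libraries stood at 43.6 to 67.7 CPM. The log2 fold changes were 0.25 (95% interval -0.25 to 0.75, adjusted p = 0.696) and 0.23 (-0.24 to 0.70, adjusted p = 0.806).

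**Figure D2:**
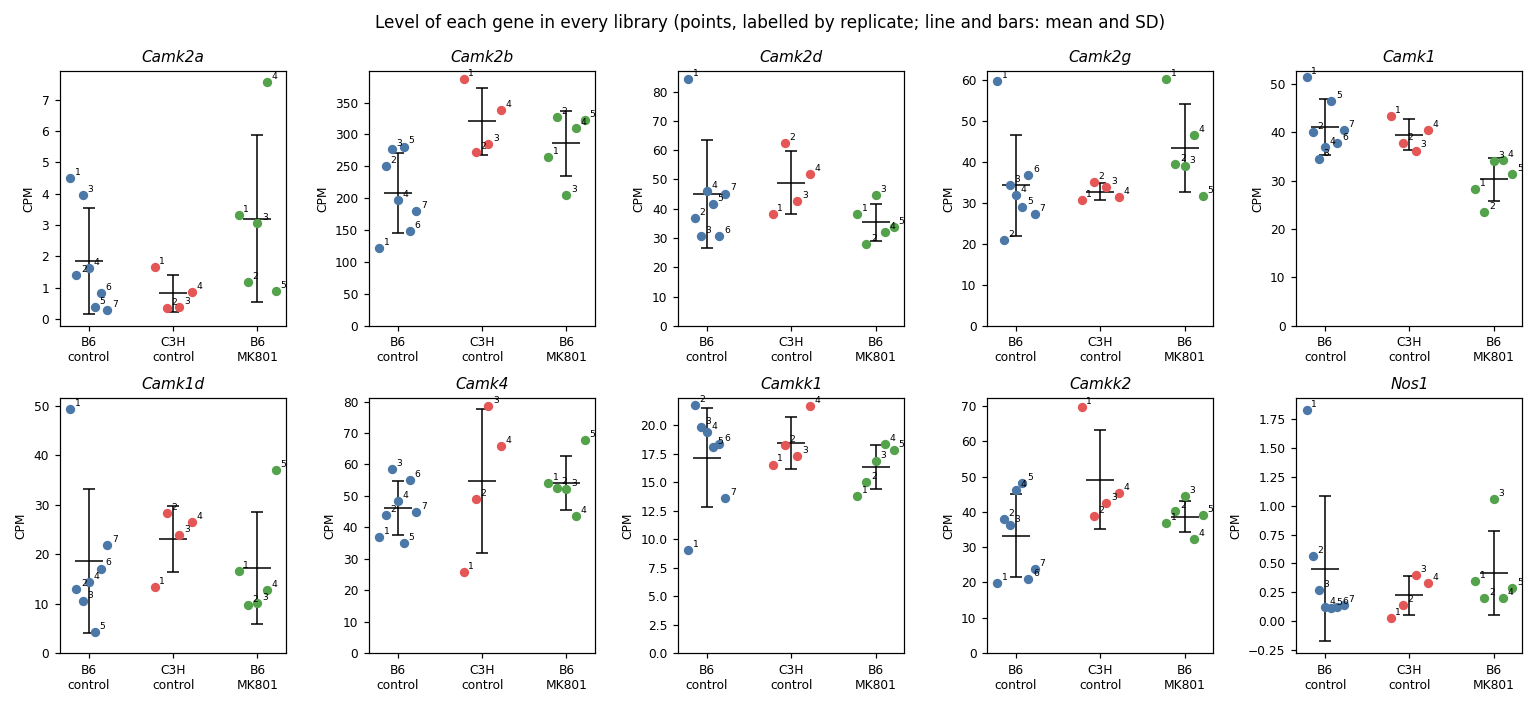
CPM of each of the 10 genes in every library (points), by group, with the group mean and SD, each gene on its own scale. Only for Camk1 do the B6 control and MK801 points not overlap, at 34.5 CPM for the lowest control and 34.2 CPM for the highest MK801 library.

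Nos1 had the fewest counts of the members, with 1 to 81 estimated counts per library. B6 controls ran from 0.114 CPM through a median of 0.137 to 1.83 CPM, and replicate 1, the library with Neurod6 and Nefl, held the highest value. The C3H controls stood at 0.0253, 0.135, 0.397 and 0.329 CPM and the MK801 libraries at 0.348, 0.199, 1.06, 0.196 and 0.289 CPM. The groups overlapped, and neither comparison passed the test (C3H log2 fold change -1.01, 95% interval -2.87 to 0.85, adjusted p = 0.666; MK801 -0.12, -1.78 to 1.53, adjusted p = 0.984). Without B6 control replicate 1 the log2 fold changes were 0.01 and 0.90, with adjusted p of 0.996 and 0.679. These intervals were wide, and differences in Nos1 that lie within them were neither shown nor excluded.

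On the scale of CPM per kb of the longest transcript in B6 controls, Camk2b was followed by Camk1 (27.4 ± 3.91), Camk4 (17.0 ± 3.19), Camk2g, Camk2d, Camkk2 (6.85 ± 2.43), Camkk1 (5.01 ± 1.27), Camk1d (2.68 ± 2.10), Camk2a and Nos1 (0.0447 ± 0.0623; SD, n = 7 for each). Of neighbours in this order, only Camk1 and Camk4 had ranges that did not overlap in B6 controls (23.1 to 34.3 and 12.9 to 21.5 CPM per kb). Camk2b and Camk1 overlapped through B6 control replicate 1, where Camk2b was at 30.3 and Camk1 at 34.3 CPM per kb. The order below Camk2b depended on the length used. With the median transcript length, Camk2b (108 ± 32.9) was followed by Camk2g (41.7 ± 14.96), Camk1 (38.0 ± 5.41), Camkk2 (30.7 ± 10.9) and Camk4 (28.4 ± 5.34), and the ranges of Camk1 and Camk4 then overlapped.

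Over the 10 genes, 0 passed an adjusted p of 0.05 in the strain comparison, where 386 of 16084 genes did (2.40%), and 0 passed with MK801, where 100 did (0.622%). At an unadjusted p under 0.05 there were 2 of 10 in each comparison, Camk2b and Camkk2 for strain and Camk2b and Camk1 for MK801, against 13.8% and 12.0% of all genes. Groups that did not overlap were found for 0 of 10 members for strain and 1 of 10 for MK801, against 3.87% and 1.42% of all genes. The median log2 fold change of the members was 0.11 for strain and 0.07 for MK801, beside -0.03 for all genes in each. These comparisons share the B6 controls.

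**Figure D3:**
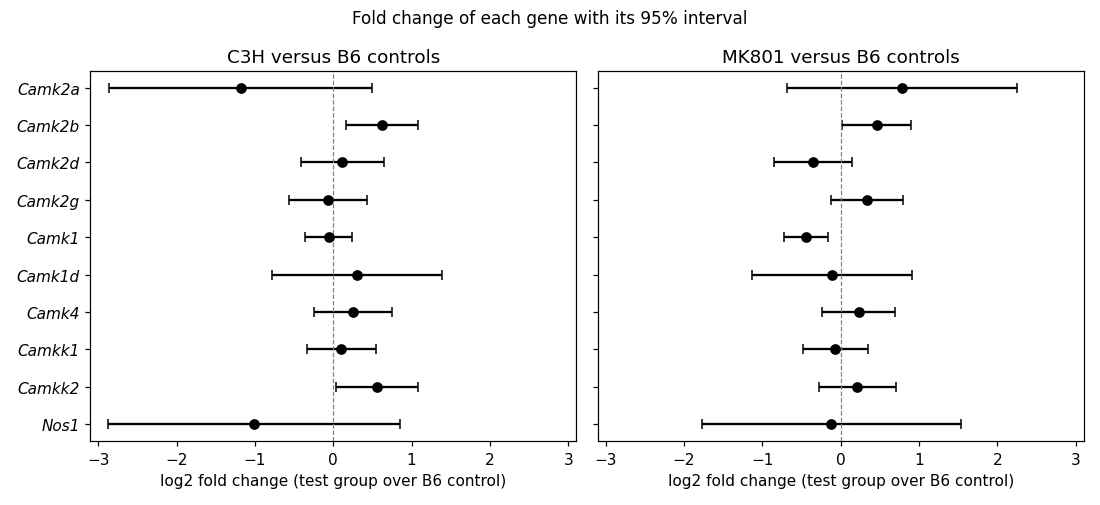
Log2 fold change of each gene against the B6 controls, with its 95% interval, for C3H controls and for MK801. The intervals exclude 0 for Camk2b and Camkk2 in C3H controls and for Camk2b and Camk1 with MK801, at unadjusted p under 0.05, and none passed after adjustment over all 16084 genes.

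**Figure D4:**
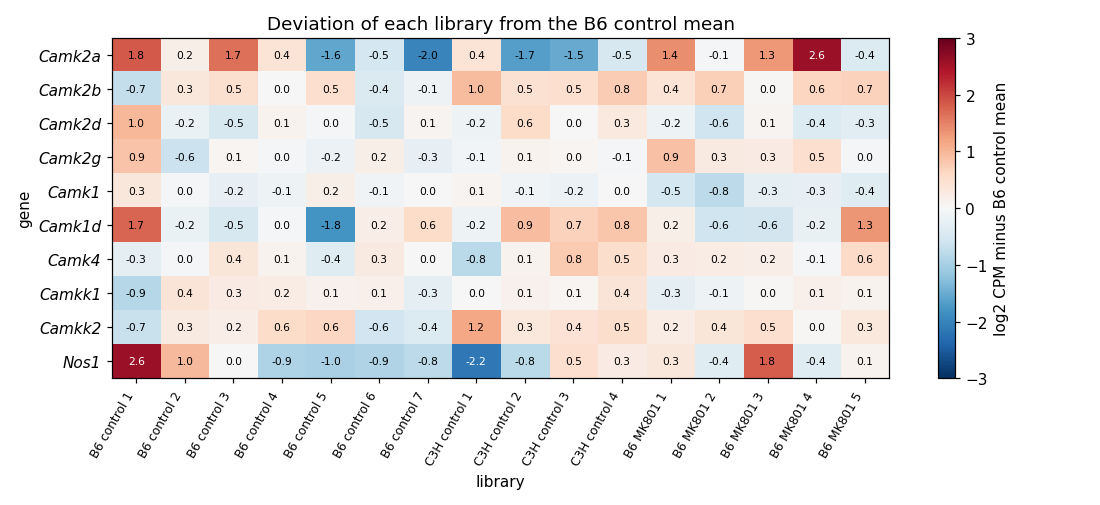
Log2 CPM of each gene (rows) in each of the 16 libraries (columns) minus its mean in B6 controls, in log2 units, as colour and printed value. B6 control replicate 1 is highest of the B6 controls for Camk2a, Camk2d, Camk2g, Camk1, Camk1d and Nos1 and lowest for Camk2b, Camkk1 and Camkk2.

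Among the members, deviations from group means were compared for 45 pairs over the 16 libraries, and 0 pairs passed after adjustment. The closest was Camk1d with Camkk2, which went opposite ways (Pearson r = -0.71, Spearman rho = -0.74; permutation p = 0.00248 and 0.00228, adjusted p = 0.112 and 0.103), and r was -0.48 without B6 control replicates 1 and 5. The pair of Camkk2 and Camk2b, which went the same way, gave r = 0.70 and rho = 0.68 (permutation p = 0.0183 for r, adjusted p = 0.195), and r was 0.75 without its 2 extreme libraries.

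Across all genes whose mean log2 CPM reached 1, the nearest to each member in these deviations are given as a description, since the 16 libraries share depth and tumour composition. For Camk1d the nearest was Gucy1b3, a subunit of soluble guanylate cyclase, the receptor for nitric oxide (r = 0.95), then Trp53inp1 (0.91) and Npr3 (0.91). Gucy1b3 reached 55.8 CPM in B6 control replicate 1, while elsewhere it lay between 7.98 and 33.2 CPM. For Camk2b they were BC017158, Vsig10 and Pgap3 (0.90 each); for Camkk2, Sfxn2 (0.90), Arf5 (0.89) and Tspan33 (0.88); and for Nos1, Ankrd50 (0.90), Arhgap28 (0.87) and Rbfox1 (0.84). For Camk1 they were Crlf3 (0.89), Rhebl1 (0.88) and Nop16 (0.86); for Camk2d, Mxra7 (0.89), AI504432 (0.86) and Mical1 (0.86); and for Camk2g, Mapk8 (0.87), Cadm1 (0.83) and Psmb11 (0.83). For Camk4 they were E330009J07Rik (0.88), Naif1 (0.87) and Ptprr (0.87); for Camkk1, Epb4.1 (0.88), Nol4 (0.87) and Fam101b (0.86); and for Camk2a, Kif5a (0.82), Zfp133-ps (0.82) and BC016495 (0.81). Without B6 control replicate 1 the r of Camk1d with Gucy1b3 was 0.93. Those of Camkk1 fell furthest, to 0.69, 0.60 and 0.58 in the order given, and those of Camk2d were 0.73, 0.69 and 0.81.

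Around these kinases, 129 of 142 listed pathway genes could be tested, in 8 lists. For strain 2 were higher and 0 lower, 1.55% of the 129 against 2.40% of all genes, and 15 had an unadjusted p under 0.05 (11.6% against 13.8%). For MK801 1 was higher and 0 lower (0.775% against 0.622%), and 10 had an unadjusted p under 0.05 (7.75% against 12.0%). The median log2 fold change over the lists was 0.10 for strain and -0.03 for MK801.

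In the calmodulin list (8 genes tested, 1 higher for strain), Calml4, a calmodulin-like gene, rose from 1.96 ± 0.674 CPM in B6 controls to 13.7 ± 11.9 CPM in C3H controls (6.07 to 31.2 CPM), with no overlap (log2 fold change 2.81, SE 0.593, adjusted p = 0.0178). In the nitric oxide list (25 tested, 1 higher), Gchfr, the feedback regulator of the enzyme that starts synthesis of the nitric oxide synthase cofactor tetrahydrobiopterin, rose from 1.68 ± 0.915 CPM to 9.21 ± 8.86 CPM (3.76 to 22.3 CPM), with no overlap (log2 fold change 2.45, SE 0.501, adjusted p = 0.0147). Both values were highest in C3H control replicate 1, and without it the log2 fold changes were 1.998 for Calml4 and 1.51 for Gchfr, with an adjusted p of 0.104 each. Both calls were also lost with the first principal component as a covariate (Calml4 2.70, adjusted p = 0.0671; Gchfr 1.89, adjusted p = 0.0544), and Gchfr lost its call in a fit of the 2 groups alone (adjusted p = 0.0684). The summed level of other islet cell markers (4 of 4 in the table) had a higher mean in the same comparison. It ran from 68.7 to 347 CPM in B6 controls and from 219 to 2286 CPM in C3H controls, highest in C3H control replicate 1. The difference lay in Pyy and Ppy. Gcg averaged 98.7 CPM in B6 controls and 91.2 CPM in C3H controls. Sst averaged 3.25 and 5.13 CPM, with ranges that overlapped (0.314 to 12.5 and 0.583 to 11.2 CPM). Pyy, a gut and islet peptide gene, stood at 0.518 to 4.48 CPM in B6 controls and at 1302, 84.5, 317 and 84.3 CPM in C3H controls. Ppy, the pancreatic polypeptide gene, stood at 2.17 to 56.3 CPM in B6 controls and at 975, 590.1, 145 and 91.6 CPM in C3H controls. The part of these markers in the Calml4 and Gchfr results was not tested.

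Calm2, a calmodulin gene named after its values were seen, did not pass. It averaged 925 ± 269 CPM in B6 controls, 624 ± 92.6 in C3H controls and 843 ± 58.8 with MK801. Its strain log2 fold change was -0.57 (adjusted p = 0.187).

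With MK801, Rcan2, which encodes a regulator of the calmodulin-dependent phosphatase calcineurin, rose from 83.5 ± 15.9 CPM to 169 ± 45.5 CPM. It was the only gene of the lists to pass (13 calcineurin and NFAT genes tested, 1 higher). The MK801 libraries stood at 143.5, 145.7, 167.8, 248.4 and 141.1 CPM, all above the highest B6 control at 97.5 CPM (log2 fold change 1.02, SE 0.182, adjusted p = 0.0249). The call was lost without MK801 replicate 2, 3 or 4 (adjusted p of 0.0696, 0.0640 and 0.0637) and in a fit of the 2 groups alone (0.0580). It was also lost with the T and NK cell list as a covariate, at a log2 fold change of 0.87 (SE 0.308) and an adjusted p of 0.9998. In that fit 0 of 16084 genes passed, so the loss is not particular to Rcan2. The part of the other marker lists given for Camk1 in the Rcan2 result was not tested.

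Elsewhere in the lists no gene passed, and the gene with the smallest p in each list is given. For strain these were Dclk3, a doublecortin-like kinase (log2 fold change 2.36, adjusted p = 0.117), Ppp3cc, a calcineurin catalytic subunit (0.37, 0.350), Ep300, a CREB coactivator (0.36, 0.444), Prkaa2, a catalytic subunit of AMP-activated kinase (-0.77, 0.480), Cacnb4, a calcium channel subunit (-0.99, 0.0680), and Rasgrf2, a calmodulin-regulated exchange factor for Ras (2.95, 0.102). Dclk3 passed without B6 control replicate 1 (adjusted p = 0.00161), and Cacnb4 without B6 control replicate 5 (0.0199).

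For MK801 they were Calb1, a calcium-buffering protein (-1.52, 0.494), Dapk2, a death-associated protein kinase (-0.97, 0.115), Hdac4, a class IIa histone deacetylase that CaM kinases phosphorylate (0.62, 0.425), Prkag2, a regulatory subunit of AMP-activated kinase (0.28, 0.630), Ddah1, which breaks down an inhibitor of nitric oxide synthase (-1.23, 0.141), Cacna1d, an L-type calcium channel subunit (0.61, 0.278), and Rasgrf2 (2.28, 0.239). The Calb1 value was -0.63 without B6 control replicate 1, which stood at 16.1 CPM, and the Rasgrf2 value 1.09 without MK801 replicate 2, which stood at 123.8 CPM. DESeq2's Wald test called Dclk3, Cacnb4 and Rasgrf2 for strain, with adjusted p of 0.0230, 0.00349 and 0.00907, and Dapk2 and Ddah1 for MK801, with 0.0115 and 0.0274. It called 794 genes for strain and 641 for MK801, against 386 and 100 in edgeR's test. Dclk3 also passed with limma-voom (0.0148) and with limma on the normalized values (0.0337), and Rasgrf2 for strain with the first principal component as a covariate (0.0457).

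**Figure D5:**
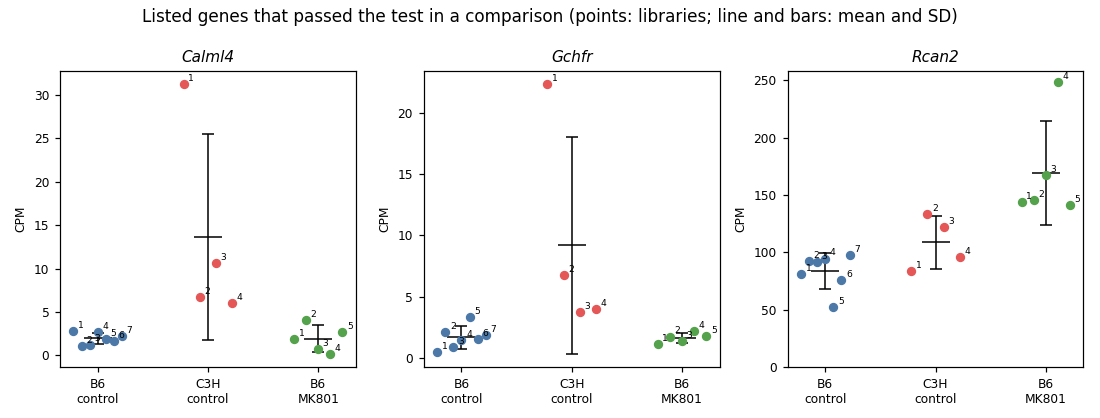
CPM in every library (points, by group) of the 3 listed genes that passed the test in a comparison, with the group mean and SD. Calml4 and Gchfr are higher in every C3H control than in every B6 control, and Rcan2 is higher in every MK801 library than in every B6 control.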

How the data were processed

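TruSeq (Illumina) libraries were prepared from polyA RNA, per the labels' protocols. RSEM 1.2.12, Bowtie 1.0.1 and mm9 are named in the submitters' processing notes, with no role stated. Annotation, read length and strandedness: not given in the sources used here. Values analysed were estimated counts per gene, deposited by the authors and not always whole; a normalized signal table, also deposited, served only in an alternative.

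After rounding, the counts were tested in R 4.3.3 with edgeR 4.0.16: filterByExpr by group, TMM scaling, and a quasi-likelihood fit of all 16 libraries in 3 groups, with Benjamini-Hochberg adjustment over 16084 genes and a threshold of 0.05. Depth was 38561334 to 57013815 counts, so low genes carry wide errors. CPM used TMM-scaled totals, and log2 CPM a prior count of 2. Levels per kb used the longest protein-coding GENCODE M21 transcript, which is on GRCm38 and not on mm9. Pair correlations used 100000 permutations.

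The genes and lists were chosen with earlier results of these data known. Named genes were all members, list genes that passed (or the smallest p), and the 3 genes nearest each member. No libraries were merged, since the lowest chi-square per degree of freedom within a group was 117.1. The steps were tested on simulated data. Alternatives were other scalings, filters and tests (DESeq2 1.42.0, limma 3.58.1), covariates, the replicate block, each library left out and, added after seeing the data, the median transcript length and the nearest genes without B6 control replicate 1.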

Additional observations from a re-analysis of the deposited data

Results flagged for a closer look

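Of the 30 gene and group combinations, 6 held a library far from the others of its group by Dixon's test on CPM. Its rate of about 1 in 20 by chance is for independent, normally distributed values. The CPM were not on a log scale, every flag was a high value, and several came from B6 control replicate 1. The count is therefore not set against that rate. In B6 controls, replicate 1 was highest for Camk2d at 84.2 CPM (next 45.9), for Camk2g at 59.6 CPM (next 36.9), for Camk1d at 49.3 CPM (next 21.8) and for Nos1 at 1.83 CPM (next 0.567). This is the library with the lowest beta cell marker sum and the highest neuron marker sum. With MK801, replicate 5 was highest for Camk1d at 37.0 CPM (next 16.6), and replicate 3 was highest for Nos1 at 1.06 CPM (next 0.348).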

How the results depend on the processing

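No member was called in any alternative except Camk1 with MK801 in DESeq2's Wald test (1 member called). Of 468 member results, 443 kept direction and side of the threshold, 1 passed it and 24 changed sign, all on values that were not called. Genes called for strain (386) became 794 with DESeq2's Wald test, 231 with the 2 groups alone, 162 with the replicate block and 207 to 473 with a library left out. Those called for MK801 (100; 24 higher, 76 lower) became 641 with DESeq2's Wald test, 233 with limma on the authors' normalized values (26 higher, 207 lower), 64 without a filter, 10 with the 2 groups alone (7 higher, 3 lower), 1 with the replicate block, 173 with the first principal component (54 higher, 119 lower), 0 with the T and NK cell list and 4 to 202 with a library left out. For strain the count was 212, 207 and 245 without C3H control replicate 2, 3 and 4. For MK801 it was 48, 46 and 28 without B6 control replicate 1, 3 and 7, and 8, 16, 4 and 202 without MK801 replicate 2, 3, 4 and 5. The acinar list gave 24 higher and 49 lower. Deviations of same-numbered libraries gave r of -0.40 to 0.13 for strain and -0.22 to 0.06 for MK801. Libraries with different numbers were not compared, so these values cannot decide whether the replicate numbers pair the samples. With the replicate block Calml4, Gchfr and Rcan2 lost their calls (adjusted p of 0.177, 0.161 and 0.0781), at log2 fold changes of 2.63, 2.56 and 1.05. The causes were not tested.

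Signs of log2 fold changes reversed as follows. For strain, Camk2g was 0.041 with the first principal component and 0.033 with the T and NK cell list. With a library left out, Camk2g ran from -0.16 to 0.12, Camk2d from -0.019 to 0.35, Camk1 from -0.11 to 0.042, Camkk1 from -0.0036 to 0.18 and Nos1 from -1.37 to 0.014. Of these ends, those for Camk2g (0.12), Camkk1 (-0.0036) and Nos1 (0.014) came without B6 control replicate 1. For MK801, limma-voom gave Camk1d 0.068 and Nos1 0.35, limma on normalized values 0.016 and 0.30, and the first principal component 0.23 and 0.0094. The T and NK cell list gave Camk2d 0.14, Camk1d 1.31, Camkk2 -0.019, Nos1 0.014, Calb1 1.06 and Prkag2 -0.30. With a library left out, Camk1d ran from -0.60 to 0.35 and Nos1 from -0.80 to 0.90, both highest without B6 control replicate 1.

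With median transcript lengths, the CaMKII shares of Camk2b were 75.8% in C3H controls and 69.7% with MK801. In B6 controls they ran from 39.6% in replicate 1 to 78.6% in replicate 2. The B6 control mean of 73.3% given above is on longest lengths. With median lengths Camk2d held 5.56% and 4.21% in C3H controls and with MK801. Camk2g held 26.3%, 18.4% and 25.0% in B6 controls, C3H controls and MK801, and Camk2a 0.262% in C3H controls. Without length correction Camk2d held 12.3% and 9.91% in C3H controls and with MK801. Nos1 had 1 to 81 and Camk2a 12 to 346 estimated counts per library, and both varied widely between libraries.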
